A study of Mus musculus with 30 samples.

Results

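Genes of 6 families of developmental transcription factors, the Pax, Lhx, Nkx, Tbx, Zic and Six-type genes, were followed across mouse primordial germ cells with and without intact Rnf2. Members were all genes whose symbol in the array's annotation was that of a numbered gene of the Pax, Lhx, Tbx, Zic or Six-type series, or Nkx with a pair of hyphenated numbers. The rule found 51 of the 19937 genes that could be named by 1 symbol: 13 Nkx, 12 Tbx, 9 Pax, 8 Lhx, 5 Six-type and 4 Zic genes. The rule itself used symbols and no measured value, but the families were chosen with earlier results of these data known. For a gene with several probe sets, the probe set with the highest mean over all arrays was used. Among the members this concerned Zic4 and Zic5 (2 each).

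The germ cells were sorted by flow cytometry from dissociated gonads. Their embryos carried the Oct4(deltaPE)-GFP reporter, which marks germ cells, and RNA of 500 cells per sample was amplified and hybridised to Affymetrix arrays. The labels give all embryos the background mixed129/Sv and C57BL6J. Control cells carried the genotype Ring1+;Rnf2+ and the deleted cells, called Rnf2delta here, Ring1+;Rnf2delta, so Ring1, the paralogue of Rnf2, is given as Ring1+ in every group. There were 10 groups of 3 arrays: control and Rnf2delta cells of females and of males at E11.5 and at E12.5, and control cells of each sex at E13.5. The sources used here do not say how, when and in which cells the deletion was made. Nor do the labels tell whether a group's 3 arrays were made from different embryos, pools or repeat runs, so a p-value reflects spread among arrays that may be technical.

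Pax proteins bind DNA through a paired domain, Lhx, Nkx and Six-type proteins through homeodomains, Tbx proteins through the T-box and Zic proteins through zinc fingers, and each sets the identity of particular embryonic tissues. In embryonic stem cells their genes are textbook targets of Polycomb: repressive complex 2 methylates histone H3, and repressive complex 1, built around the ubiquitin ligases RNF2 and RING1, adds ubiquitin to histone H2A, and together they keep such genes silent in cells where they are not needed. Primordial germ cells, which must avoid somatic programmes before they become oocytes or spermatogonial precursors, are a cell type in which this repression is of interest. Polycomb binding itself was not analysed here.

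The sorted cells had the signal of germ cells. Of the 14 germ cell markers, 13 were above background in control E11.5 males and 13 in control E11.5 females, and all 14 were in each of the other 8 groups. Their mean log2 signal per array lay between 6.68 and 7.19. Somatic signal was not absent. Of the 11 supporting cell markers 8 were above background in some group (Wt1, Gata4, Nr5a1, Amhr2, Sox9, Amh, Dhh and Fst). Foxl2, Upk3b and Krt19 were at background throughout, and array means of the list were 2.29 to 2.86. The count differed by group, from 1 in control females at E11.5 and at E12.5 to 7 in control E12.5 males, with 3 in Rnf2delta E12.5 males. Of the 8 interstitial and mesenchymal markers 5 were above background in some group (Pdgfra, Nr2f2, Dlk1, Col1a1 and Col1a2). Each group had 2 to 4 of them, and array means of the list were 2.54 to 2.87. Steroidogenic markers were at background (0 of 4 above, array means 1.77 to 2.11). The 6 E12.5 female arrays varied more than the other 24 and had weights of 0.311 to 0.855 in the fit, against 0.575 to 1.68. Rnf2 changed by -1.11 ± 0.17 (SE) on the log2 scale in Rnf2delta males at E12.5, and by -0.65 ± 0.10 over the mean of the 4 genotype comparisons (limma adjusted p = 3.67e-04 and 3.49e-05). In E11.5 males the Rnf2 signals of both genotypes overlapped: controls read 4.79, 4.13 and 4.70, and Rnf2delta 4.01, 4.11 and 4.57. In E11.5 females controls read 4.56, 4.61 and 4.46 against 3.96, 3.81 and 4.04, in E12.5 females 5.71, 5.25 and 5.08 against 4.47, 5.0 and 4.68, and in E12.5 males 5.22, 5.68 and 5.21 against 4.09, 4.45 and 4.46. The sources used here do not say which part of Rnf2 was deleted or which part its probes cover, so the remaining signal is no measure of intact transcript. Ring1 lay between 2.74 and 3.51 on all arrays and passed the test in no genotype comparison.

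Many of these family genes gave little or no signal in germ cells. A gene was taken as above background in a group when its log2 signal on all 3 arrays exceeded the 95th percentile of 1015 olfactory receptor genes, a class mostly silent outside the olfactory epithelium, on the same array (a limit of 2.36 to 2.75). By this guide 24 members were above background in at least 1 group, and 27 were at background in all 10. Other limits moved this count both up and down, as given with the processing. The share of all genes above the limit is not given here, so the count does not set these families apart. Probes differ in affinity, so the limit is a guide rather than a detection call, and levels are compared between groups for 1 gene and not between genes. Between 14 and 20 members passed in a given group, with the lowest count in control E11.5 males and the highest in Rnf2delta E11.5 males and control E13.5 females. The 9 members above background in every group were Lhx1, Nkx1-2, Nkx2-4, Nkx2-5, Pax6, Pax8, Six4, Tbx1 and Tbx4.

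**Figure D1:**
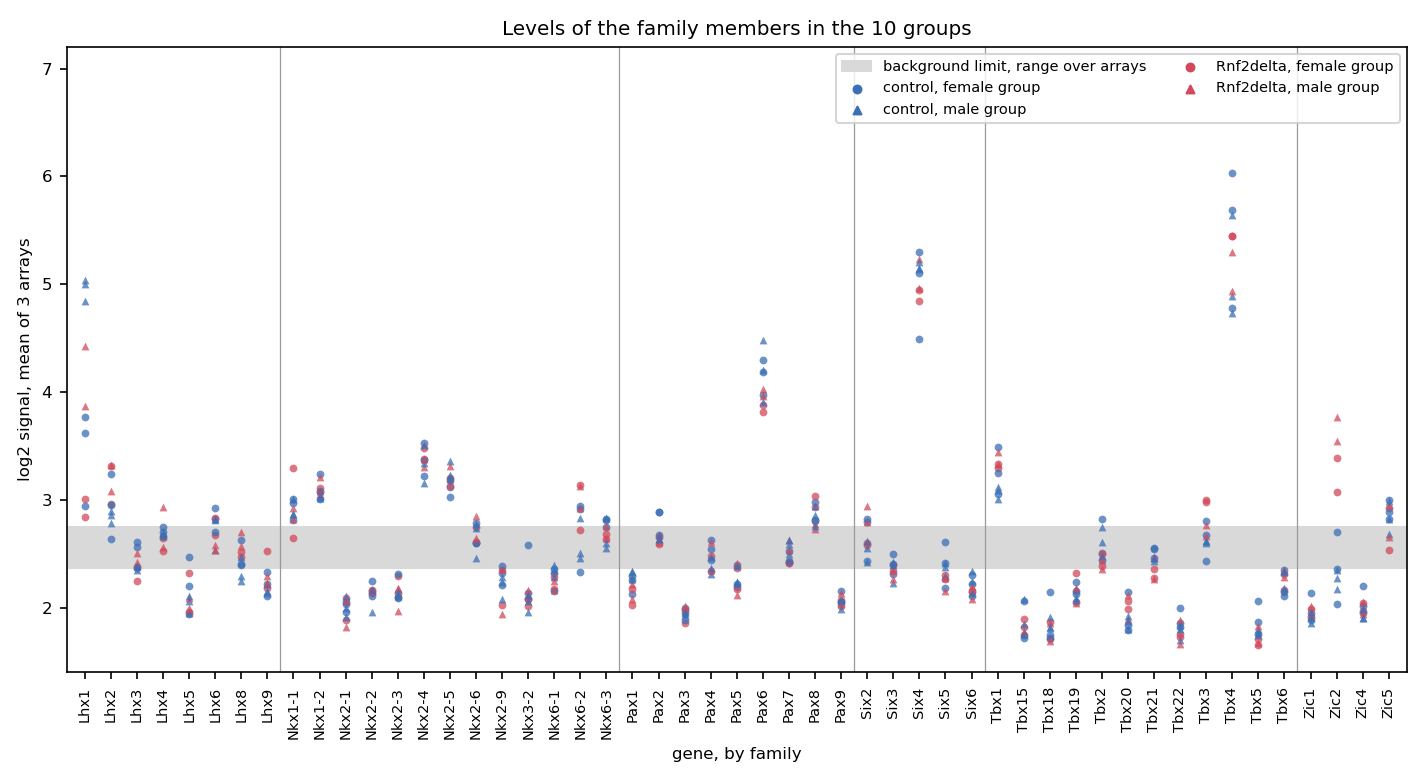
Mean log2 signal (vertical axis) of each of the 51 family members (horizontal axis, ordered by family) in each of the 10 groups, 1 point per group of 3 arrays; blue marks control, red Rnf2delta, circles female and triangles male groups, and the grey band the range of the background limit over arrays, 2.36 to 2.75. Lhx1, Pax6, Six4 and Tbx4 lie above the band in every group, and Zic2 has its Rnf2delta groups above its control groups.

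Among the Lhx genes, which encode LIM homeodomain proteins, 5 of 8 were above background in some group. Lhx1, a regulator of head, kidney and reproductive duct formation, had group means from 2.84 in Rnf2delta E11.5 females to 5.04 in control E13.5 males, the widest range of any member. Lhx2, known from eye and forebrain, ranged from 2.64 to 3.32. Lhx4 and Lhx6, known from pituitary and motor neurons and from cortical interneurons, ranged from 2.52 to 2.94 and from 2.53 to 2.92. Lhx8, an oocyte regulator, was above background in 2 groups and ranged from 2.25 to 2.70. Lhx9, which the somatic cells of the early gonad use, was at background in all 10 groups (group means of 2.11 to 2.52), as were Lhx3 and Lhx5.

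Of the 13 Nkx genes, 7 were above background in some group. Nkx2-5, the cardiac regulator, had group means of 3.03 to 3.36, Nkx2-4 of 3.16 to 3.53 and Nkx1-2, a gene of caudal neural progenitors, of 3.01 to 3.24. None of these 3 moved by more than 0.37 between its lowest and its highest group. Nkx1-1 was above background in 9 groups, and Nkx2-6, Nkx6-2 and Nkx6-3 in 6 each. Nkx2-1, Nkx2-2, Nkx2-3, Nkx2-9, Nkx3-2 and Nkx6-1, regulators of lung and thyroid, neural tube, gut and spleen, and axial skeleton among other tissues, were at background.

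Pax and Six-type genes divided in the same way. Pax6, a master regulator of the eye that also acts in forebrain and pancreas, had group means of 3.81 to 4.49. Pax8, a thyroid and kidney regulator, lay between 2.73 and 3.04 and was above background in all 10 groups. Pax2, a regulator of kidney and duct, was above background in 6 groups (2.59 to 2.89) and Pax7, a muscle progenitor gene, in 3 (2.41 to 2.62). Pax1, Pax3, Pax4, Pax5 and Pax9 were at background. Six4 had group means of 4.50 to 5.30 and Six2, a nephron progenitor gene, of 2.42 to 2.94, and Six3, Six5 and Six6 were at background.

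Of the 12 T-box genes 8 were at background: Tbx5, Tbx6, Tbx15, Tbx18, Tbx19, Tbx20, Tbx21 and Tbx22. Tbx4, known from hindlimb and lung mesenchyme, had group means of 4.73 to 6.03, and Tbx1, a pharyngeal regulator, of 3.01 to 3.49. Tbx2 and Tbx3, related repressors, were above background in 2 and 5 groups (group means of 2.36 to 2.82 and of 2.43 to 3.0). Among the Zic genes, zinc finger regulators of neural and axial development, Zic5 was above background in 7 groups by its higher probe set (2.53 to 3.0) and in 3 by its lower one, Zic2 in 3 (2.03 to 3.77), and Zic1 and Zic4 in none. All 3 groups in which Zic2 passed were Rnf2delta groups.

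The promoters of these families had more CpG dinucleotides than most, a known feature of Polycomb targets. In RefSeq promoter sequences of assembly GRCm38.p6, taken as the 250 bases before the annotated start, 41 of 51 members had an entry, with 52 starts in all. Lhx5, Nkx2-6, Nkx6-3, Pax3, Pax4, Tbx2, Tbx3, Tbx5, Tbx15 and Zic2 had none. Members had a median of 14 CpG dinucleotides and a GC content of 60.8%, against 6 and 52.4% over all 32851 promoters. A GC content of at least 50% with a ratio of observed to expected CpG of at least 0.6 was met by 51.9% of the members' promoters and by 31.0% of all. The share was 59.3% for members above background and 44.0% for those at background. The promoters of 3 members whose signal changed with genotype, sex or stage, and of Zic5, the neighbour of Zic2 whose 2 probe sets disagreed on a change (given with the Zic values), are shown 5′ to 3′ with each CpG in capitals. Lhx1 lies at chr11:84525535-84525784 on the minus strand (26 CpG), Pax6 at chr2:105668646-105668895 on the plus strand (15 CpG, 1 of 2 annotated starts), Tbx4 at chr11:85896515-85896764 on the plus strand (6 CpG) and Zic5 at chr14:122465659-122465908 on the minus strand (11 CpG).
Lhx1: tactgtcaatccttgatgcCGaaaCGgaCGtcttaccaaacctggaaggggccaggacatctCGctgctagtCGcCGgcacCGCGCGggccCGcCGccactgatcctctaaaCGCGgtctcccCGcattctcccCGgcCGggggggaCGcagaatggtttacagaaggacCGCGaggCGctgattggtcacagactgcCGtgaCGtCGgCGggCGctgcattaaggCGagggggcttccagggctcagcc
Pax6: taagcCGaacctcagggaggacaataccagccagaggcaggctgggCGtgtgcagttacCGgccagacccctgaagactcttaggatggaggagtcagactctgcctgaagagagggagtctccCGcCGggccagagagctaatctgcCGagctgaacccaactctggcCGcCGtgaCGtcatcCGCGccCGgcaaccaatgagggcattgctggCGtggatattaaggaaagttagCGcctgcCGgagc
Tbx4: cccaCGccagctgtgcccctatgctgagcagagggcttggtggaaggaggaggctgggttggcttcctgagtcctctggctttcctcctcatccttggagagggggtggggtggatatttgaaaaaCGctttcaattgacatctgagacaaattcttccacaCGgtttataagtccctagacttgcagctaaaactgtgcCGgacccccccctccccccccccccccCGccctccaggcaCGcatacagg
Zic5: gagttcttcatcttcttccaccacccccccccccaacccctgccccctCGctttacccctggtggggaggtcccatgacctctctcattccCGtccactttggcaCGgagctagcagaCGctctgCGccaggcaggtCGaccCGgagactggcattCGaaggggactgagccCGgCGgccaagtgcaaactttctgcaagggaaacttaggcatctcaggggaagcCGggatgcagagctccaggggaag
Lhx1 and Pax6 met the CpG criterion, with ratios of 0.991 and 0.652, and Tbx4 (0.285) and Zic5 (0.458) did not. The other Pax6 start also had 15 CpG, at a ratio of 1.06, but its GC content of 47.6% missed the limit. No motif was searched.

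Within a sex and stage, loss of Rnf2 moved few family members. The test was limma over all 30 arrays and 19937 genes, with Benjamini-Hochberg adjustment and a threshold of 0.05. In E11.5 females 1 member passed (Zic2, higher), where 0.712% of all genes did. In E11.5 males 3 passed (Zic2 and Six2 higher, Lhx1 lower), against 1.71% of all genes. In E12.5 males 1 passed (Zic2, higher), against 1.12%. In E12.5 females none passed, against 1.25% of all genes. There 5 members had an unadjusted p under 0.05, a limit for which the share of all genes is not given here. With equal weights for all arrays that comparison called 8.83% of all genes and 5 members (Zic2 higher; Lhx1, Nkx3-2, Tbx4 and Tbx5 lower), and with its 2 groups alone it called Zic2.

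Averaged over the 4 genotype comparisons, which gives each sex and stage the same weight, 7 of 51 members passed against 7.92% of all genes. Zic2, Lhx2, Nkx6-2 and Lhx8 were higher in Rnf2delta (4 members, against 6.15% of all genes called higher), and Lhx1, Pax6 and Tbx4 were lower (3 members, against 1.77%). The median change over the members was -0.02, and over all genes -0.01. The median size of the change, whatever its sign, was 0.08 for the members and 0.08 for all genes. None of the 7 was at background in all groups, but Zic2 was above it in 3 groups, all Rnf2delta, and Lhx8 in 2. Being above background in some group is thus no separate support for these calls. With the lower probe sets of Zic4 and Zic5 in place of the higher, the lower Zic5 probe set also rose (8 members). Whether that probe set follows Zic5 was not tested. Among the marker lists, 4 of 14 germ cell markers passed in the same contrast (Ddx4, Mael and Tdrd1 higher, Dppa3 lower), as did 1 of 6 endothelial markers (Pecam1, -0.51, adjusted p = 3.55e-06), a gene that germ cells also express. No supporting, interstitial, steroidogenic, mesonephric, erythroid or macrophage marker passed. Zic2 was the single member with all 3 Rnf2delta arrays above all 3 control arrays in each of the 4 comparisons, a pattern of 0.732% of all genes. Lhx1 was the single member with all 3 below in each, a pattern of 0.0351% of all genes (7 genes). Within single comparisons, all 3 Rnf2delta arrays were above all controls for 5 members in E11.5 females (7.8% of all genes) and 4 in the males (7.17%), and at E12.5 for 1 member in females (9.39%) and 7 in males (8.05%). They were below all controls for 6 and 5 members at E11.5 (6.27% and 7.32% of all genes) and for 5 and 3 at E12.5 (7.88% and 5.49%), females before males.

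**Figure D2:**
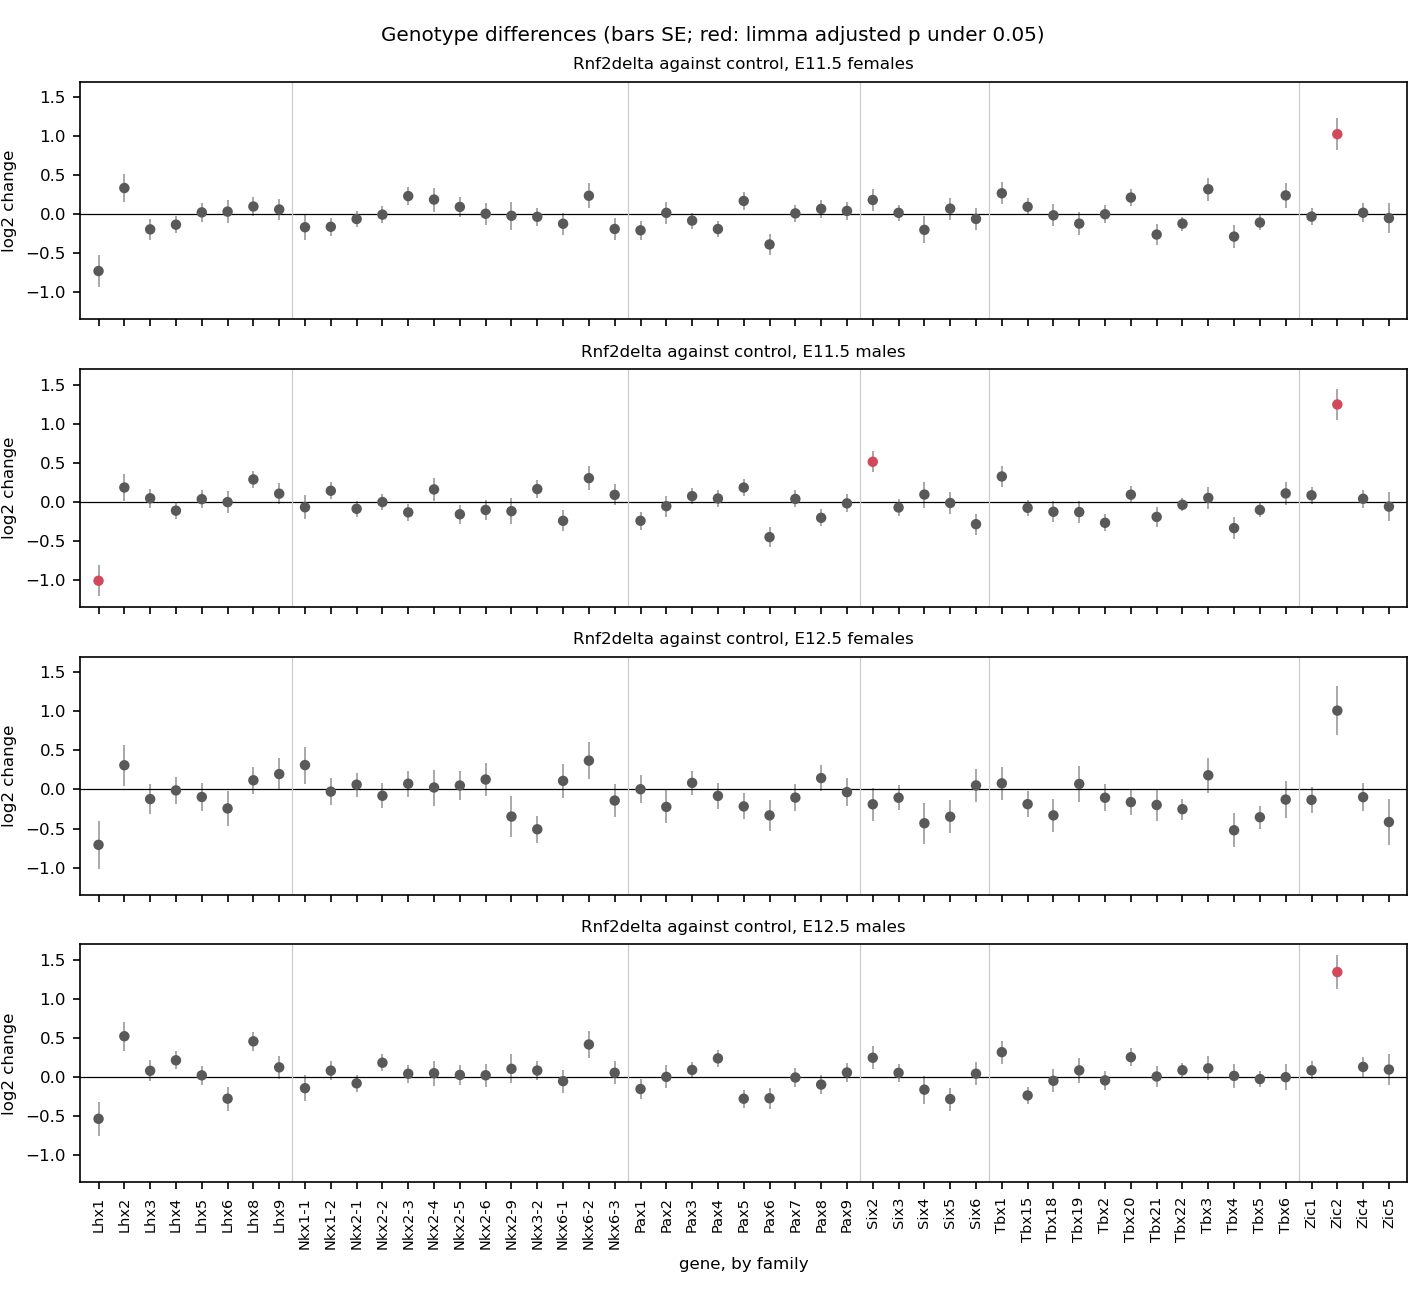
Log2 change, Rnf2delta minus control (vertical axis), of the 51 members (horizontal axis, by family) in each of the 4 genotype comparisons, 1 panel each; points are limma estimates, bars their SE, and red marks an adjusted p under 0.05. Zic2 is the highest point and Lhx1 the lowest point of each panel, and the other members lie between them.

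Zic2, a zinc finger factor of gastrulation and forebrain development, was near background in control germ cells and higher without Rnf2. Rnf2delta arrays read 3.39, 3.54 and 3.71 in E11.5 males, where controls read 2.35, 1.92 and 2.56. In E12.5 males Rnf2delta arrays read 3.51, 3.45 and 4.35 against 2.26, 2.12 and 2.67. The groups did not overlap in either comparison, and the lowest Rnf2delta array stood above the highest control. The changes were 1.25 ± 0.20 (SE; 95% interval 0.84 to 1.65, adjusted p = 4.74e-04) and 1.34 ± 0.21 (0.90 to 1.79, adjusted p = 4.47e-04), and each kept its call without any 1 array.

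In E11.5 females Zic2 read 3.42, 2.60 and 3.20 in Rnf2delta against 1.86, 2.34 and 1.91 in controls, and in E12.5 females 3.35, 3.22 and 3.60 against 2.40, 2.33 and 2.34. Again no array overlapped. The E11.5 female change of 1.02 ± 0.21 (adjusted p = 0.00918) missed the threshold when control replicate 1 (0.97, adjusted p = 0.0625), Rnf2delta replicate 1 (0.83, 0.106) or Rnf2delta replicate 3 (0.94, 0.0543) was left out, and in a fit of the compared groups alone (1.02, 0.0992). The E12.5 female change of 1.01 ± 0.31 (95% interval 0.38 to 1.64) did not pass, at an adjusted p of 0.11, but did with equal weights (adjusted p = 0.00391) and with the compared groups alone (0.0492). Over its alternatives this adjusted p ran from 0.00391 to 0.301. Averaged over the 4 comparisons Zic2 rose by 1.16 ± 0.12 (adjusted p = 9.1e-08), and kept this call without any 1 of 24 arrays.

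The Rnf2delta arrays of both sexes and stages thus ran from 2.60 to 4.35 for Zic2 with a median of 3.44 (n = 12), and the control arrays of the same stages from 1.86 to 2.67 with a median of 2.34 (n = 12). The ranges met at the single Rnf2delta E11.5 female array at 2.60, which lay below the highest control. In E13.5 controls, where there is no Rnf2delta group, Zic2 read 2.16, 2.16 and 2.19 in males and 2.37, 2.73 and 3.0 in females. The E13.5 female arrays all lay above the male ones, with a difference of 0.55 ± 0.21 that did not pass (adjusted p = 0.0705). The highest Zic2 signal, 4.35, came from Rnf2delta E12.5 male replicate 3, which also had an erythroid marker mean of 4.50, against 1.93 to 2.50 on the other 29 arrays. The Zic2 call in E12.5 males was kept without that array. In bulk samples a higher signal in all cells and a larger share of cells with the transcript cannot be told apart.

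Zic5, whose gene lies next to Zic2 on chromosome 14, gave no single answer, because its 2 probe sets disagreed. The probe set with the higher mean, which stood for the gene in all counts here, changed by -0.11 ± 0.11 over the mean of the 4 comparisons (95% interval -0.33 to 0.12, adjusted p = 0.646). Its Rnf2delta arrays ran from 2.26 to 3.27 with a median of 2.79 and its E11.5 and E12.5 control arrays from 2.45 to 3.28 with a median of 2.89, so the ranges overlapped almost fully.

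The lower Zic5 probe set was higher without Rnf2. In E11.5 males its Rnf2delta arrays read 2.85, 3.19 and 2.83 against 2.31, 2.22 and 2.47, and in E12.5 males 3.12, 2.83 and 2.80 against 2.24, 2.45 and 1.94. In E11.5 females they read 2.57, 2.58 and 2.85 against 2.33, 2.56 and 2.34, and in E12.5 females 3.21, 2.61 and 2.77 against 1.94, 2.62 and 2.03. The genotypes did not overlap except at E12.5 in females, and at E11.5 in females they nearly met. In a fit with this probe set in place of the other, added after the data had been seen, the change was 0.52 ± 0.09 over the mean of the 4 (95% interval 0.34 to 0.71, adjusted p = 2.38e-04). This call was kept without any 1 of 24 arrays and in 7 further alternatives (0.49 to 0.59, adjusted p of at most 0.00121). The changes in males passed, at 0.61 ± 0.15 at E11.5 (adjusted p = 0.0345) and 0.70 ± 0.16 at E12.5 (0.0264), and those in females did not, at 0.22 ± 0.16 (0.761) and 0.57 ± 0.24 (0.285). Averaged with the other probe set, Zic5 changed by 0.21 (adjusted p = 0.148). The annotation gives both probe sets to Zic5, and the position of their probes was not given in it. The higher probe set is numbered 10422504, near that of Zic2 on chromosome 14 (10417176). The lower is numbered 10376241, away from these and nearer to those of Tbx2 (10379936) and Tbx4 (10379944) on chromosome 11. Whether its signal comes from another locus, and which probe set follows the Zic5 transcript, was not tested.

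Zic1 (0.00 ± 0.06) and Zic4 (0.02 ± 0.07), neighbours of each other on chromosome 9, were at background on either genotype. Zic1 Rnf2delta arrays read 1.74 to 2.26 and controls of the same stages 1.70 to 2.25, and Zic4 read 1.85 to 2.33 against 1.81 to 2.56. The lower probe set of Zic4 was at background in all 10 groups too (1.45 to 2.26 over all arrays) and changed by -0.12 ± 0.06 (adjusted p = 0.323).

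**Figure D3:**
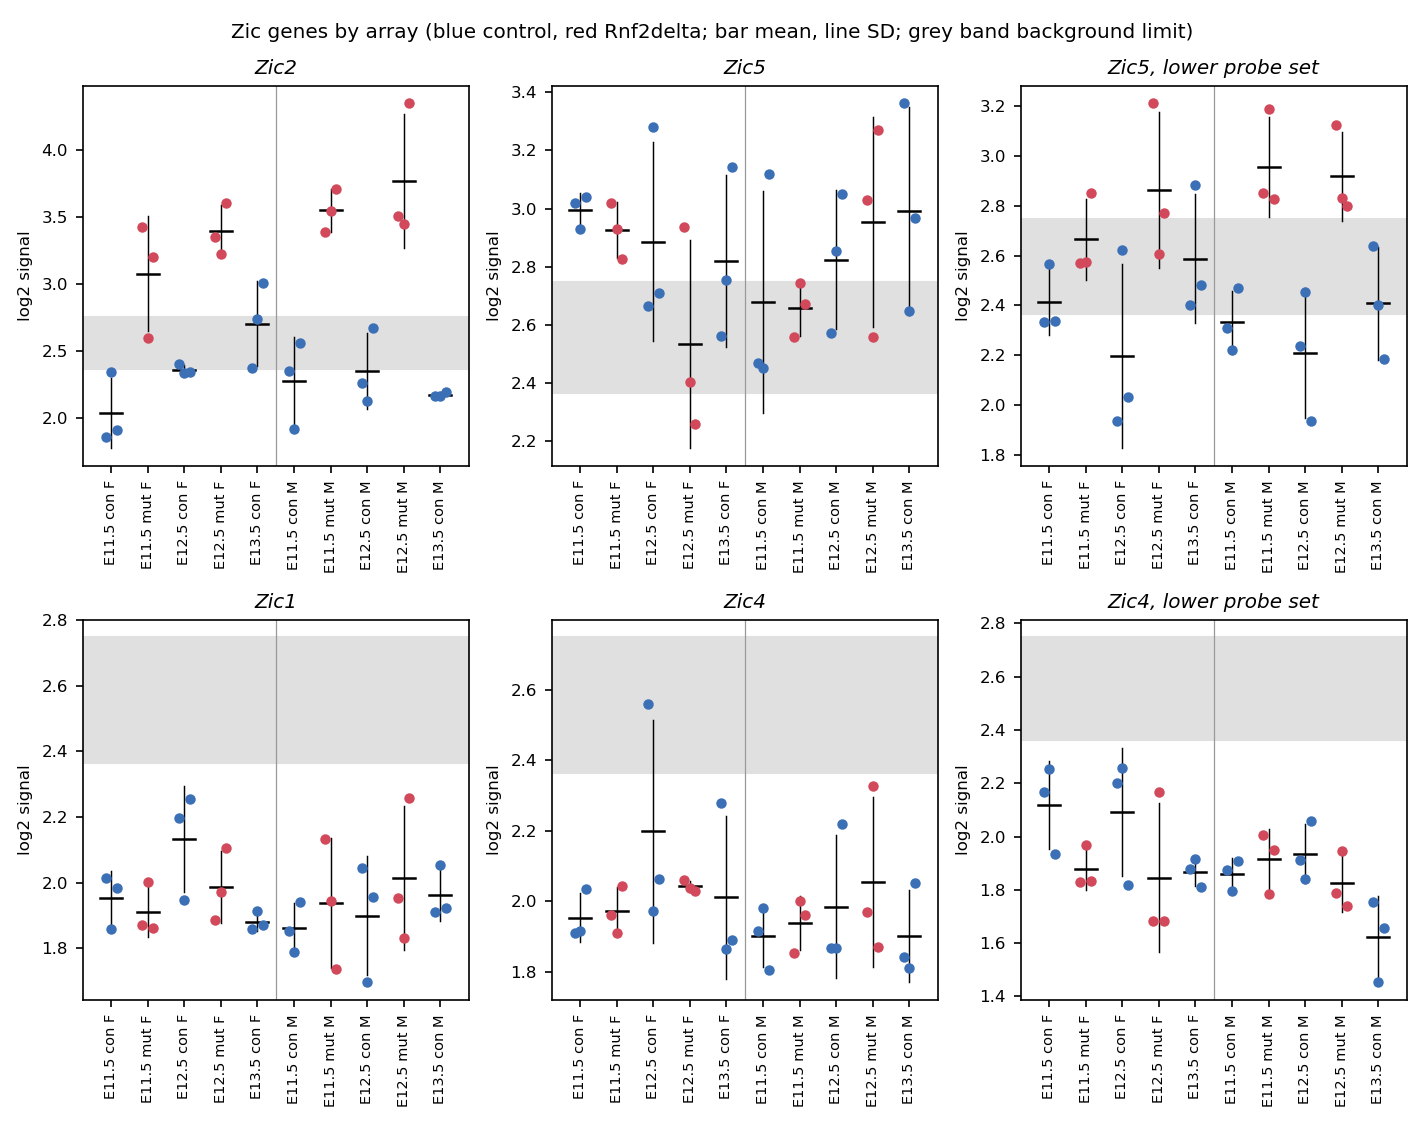
Log2 signal (vertical axis, scaled by panel) of Zic2, of Zic5 by each of its 2 probe sets, of Zic1 and of Zic4 by each of its 2 probe sets on each array, by stage, genotype and sex (con, control; mut, Rnf2delta; F, female; M, male); black bars are means of 3 arrays, lines their SD, and the grey band the background limit over arrays, 2.36 to 2.75. All 3 Rnf2delta points of Zic2 lie above the 3 control points of the same sex and stage in each of the 4 pairs, and those of the lower Zic5 probe set do so in 3 of 4; the points of the higher Zic5 probe set, of Zic1 and of both Zic4 probe sets overlap in each pair.

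Lhx1 went the other way: it was lower in Rnf2delta germ cells, and it also differed by sex in controls. In E11.5 males the control arrays read 4.87, 4.82 and 4.83 and the Rnf2delta arrays 3.16, 4.18 and 4.28. In E12.5 males they read 5.15, 4.70 and 5.14 against 4.37, 4.51 and 4.40. All Rnf2delta male arrays were below all control male arrays of their stage, with replicate 1 of E11.5 the lowest. The E11.5 male change of -1.01 ± 0.20 passed (adjusted p = 0.00494), but did not without that replicate (-0.61, adjusted p = 0.0687) or with the compared groups alone (-1.02, 0.132). The E12.5 male change was -0.53 ± 0.22 (adjusted p = 0.338).

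In females Lhx1 read 3.71, 3.45 and 3.69 in E11.5 controls against 3.10, 2.76 and 2.66 in Rnf2delta, and 4.09, 3.91 and 3.32 against 2.99, 3.13 and 2.90 at E12.5. The groups again did not overlap. The changes were -0.73 ± 0.21 at E11.5 (adjusted p = 0.104) and -0.71 ± 0.31 at E12.5 (adjusted p = 0.318), and neither passed. The E11.5 female change passed after quantile normalization (-0.81, adjusted p = 0.0433; range over alternatives 0.0433 to 0.277), and the E12.5 female change with equal weights (-0.77, 0.0267; range 0.0267 to 0.548). Averaged over the 4 comparisons Lhx1 fell by 0.75 ± 0.12 (adjusted p = 8.58e-05), a call kept without any 1 of 24 arrays.

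Control males had more Lhx1 signal than control females at each stage. The E13.5 males read 5.29, 4.82 and 4.99, and the E13.5 females 3.26, 2.71 and 2.86. Over the 3 stages control male arrays ran from 4.70 to 5.29 (median 4.87, n = 9) and control female arrays from 2.71 to 4.09 (median 3.45, n = 9), with no overlap. The female minus male difference was -1.24 ± 0.21 at E11.5 (adjusted p = 0.00403), -1.23 ± 0.28 at E12.5 (0.0046) and -2.10 ± 0.21 at E13.5 (2.63e-08). The call at E11.5 was lost without control female replicate 2 (-1.14, adjusted p = 0.0677) and that at E12.5 without control female replicate 3 (-0.97, 0.088), and that at E13.5 was kept without any 1 array. Between E12.5 and E13.5 control females changed by -0.80 ± 0.28 in Lhx1 (adjusted p = 0.0612) and control males by 0.07 ± 0.21 (adjusted p = 0.937). A change of the sex difference between stages did not pass: from E12.5 to E13.5 it was -0.87 ± 0.35 (adjusted p = 0.159) and from E11.5 to E13.5 -0.86 ± 0.29 (0.0743).

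The mesonephric duct, which lies beside the gonad, also uses Lhx1. Of 7 mesonephric tubule and duct markers 4 were above background in some group (Ret, Wnt9b, Hoxb7 and Sim1). Each group had at least 1 such marker, and Rnf2delta E12.5 females and control E13.5 males had 3. Cdh16, Emx2 and Gata3 were at background, and array means of the list lay between 2.27 and 2.70. No gene of that list passed in a genotype comparison. Between control females and males Gata3 of that list differed by 0.83 ± 0.21 at E12.5 (adjusted p = 0.0116) and by 0.55 ± 0.16 at E13.5 (0.015), higher in females. Ret, a receptor of the list, differed by -0.61 ± 0.18 at E13.5 (adjusted p = 0.0149). Of the other somatic marker lists, Amh, a Sertoli cell marker, differed at E13.5 by -0.83 ± 0.245 (adjusted p = 0.0184). Its arrays overlapped, from 2.30 to 2.44 in females and from 2.24 to 3.83 in males. Dlk1, an interstitial marker, differed by 0.80 ± 0.20 (0.0053), and Pecam1 was higher in females. The part of such cells in the Lhx1 difference was not tested.

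**Figure D4:**
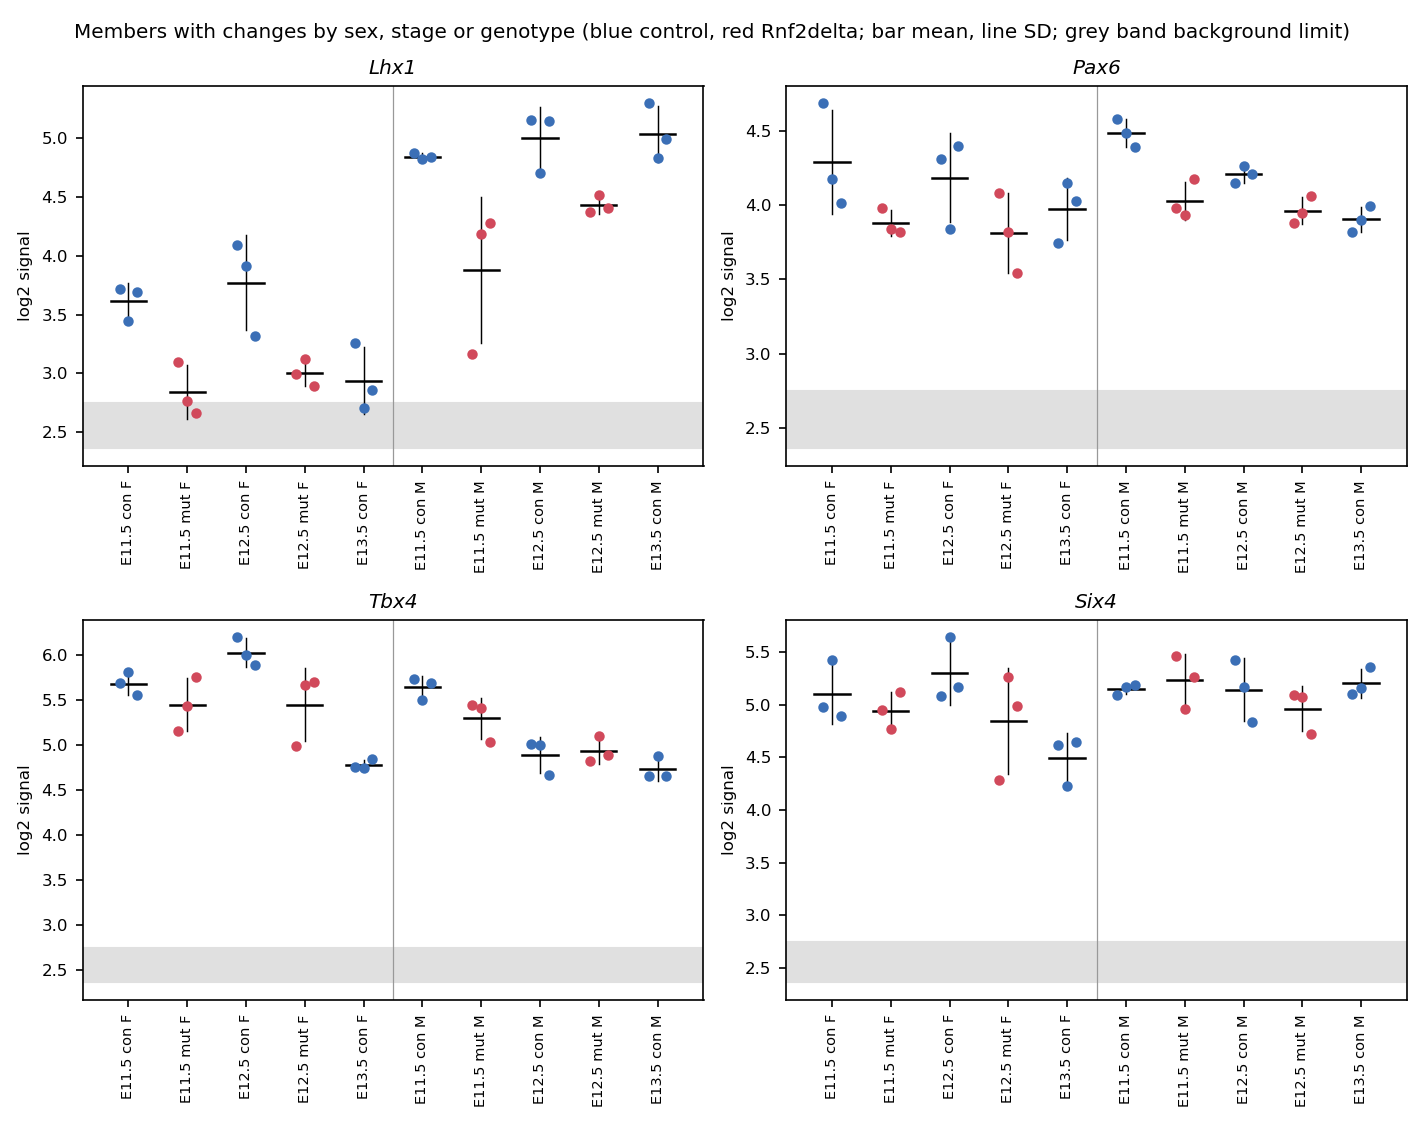
Log2 signal (vertical axis) of Lhx1, Pax6, Tbx4 and Six4 on each array, by stage, genotype and sex (con, control; mut, Rnf2delta; F, female; M, male); black bars are means of 3 arrays, lines their SD, and the grey band the background limit over arrays, 2.36 to 2.75. Lhx1 is higher in control males (4.70 to 5.29) than in control females (2.71 to 4.09) and lower in each Rnf2delta group than in its controls, and Tbx4 is highest in control E12.5 females.

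Pax6 was lower in Rnf2delta cells by a smaller step. In E11.5 males controls read 4.58, 4.49 and 4.39 and Rnf2delta arrays 3.98, 3.94 and 4.18, and in E12.5 males 4.15, 4.26 and 4.21 against 3.88, 3.95 and 4.06. In E11.5 females controls read 4.69, 4.18 and 4.02 against 3.98, 3.84 and 3.82, and in E12.5 females 4.31, 3.84 and 4.40 against 4.08, 3.82 and 3.54. The groups did not overlap except at E12.5 in females. No single comparison passed: the changes ran from -0.45 ± 0.13 in E11.5 males (adjusted p = 0.0643) to -0.27 ± 0.14 in E12.5 males (0.525). The mean of the 4 passed, with a fall by 0.36 ± 0.08 (adjusted p = 0.00206), and was kept in all 10 alternatives and without any 1 of 24 arrays.

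Lhx8, a homeobox regulator that oocytes need, rose by 0.24 ± 0.07 over the mean of the 4 comparisons (adjusted p = 0.0227). In E12.5 males Rnf2delta arrays read 2.76, 2.72 and 2.64 against 2.22, 2.33 and 2.20, and in E11.5 males 2.63, 2.61 and 2.48 against 2.33, 2.20 and 2.35. In females the groups overlapped: 2.59, 2.43 and 2.38 against 2.73, 2.24 and 2.23 at E11.5, and 2.36, 2.46 and 2.74 against 2.44, 2.27 and 2.50 at E12.5. The changes in males were 0.46 ± 0.12 at E12.5 (adjusted p = 0.0631) and 0.29 ± 0.11 at E11.5 (0.287), and in females 0.12 ± 0.17 and 0.10 ± 0.12. The difference between the sexes did not pass at either stage (-0.34 ± 0.21 at E12.5, adjusted p = 0.678; -0.19 ± 0.16 at E11.5, 1.0). The mean missed the threshold without control E11.5 female replicate 2 (0.22, 0.0529) or 3 (0.21, 0.0537), Rnf2delta E12.5 male replicate 1 (0.23, 0.0541) or control E12.5 female replicate 2 (0.22, 0.0719). All of these signals lay in or near the background range.

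Nkx6-2, a regulator of neural tube patterning and oligodendrocytes, rose by 0.33 ± 0.09 over the mean of the 4 (adjusted p = 0.0222). Its Rnf2delta arrays read 3.29, 3.05 and 3.05 against 2.76, 2.81 and 2.91 in E11.5 males, and 2.79, 2.92 and 3.07 against 2.33, 2.58 and 2.49 in E12.5 males, without overlap. In females they read 3.20, 3.17 and 3.05 against 2.75, 2.71 and 3.36 at E11.5, and 2.38, 2.84 and 2.96 against 1.98, 2.11 and 2.90 at E12.5, with overlap at each stage. E13.5 controls read 2.68, 2.67 and 2.16 in males and 3.10, 2.91 and 2.74 in females. The mean missed the threshold without control E11.5 female replicate 1 or 2, control E12.5 female replicate 1 or 2, or Rnf2delta E12.5 female replicate 2 or 3 (0.30 to 0.31, adjusted p from 0.0503 to 0.0569).

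Lhx2, a regulator of eye and forebrain, rose by 0.34 ± 0.10 over the mean of the 4 (adjusted p = 0.0349). Rnf2delta arrays read 3.15, 2.85 and 2.89 against 2.49, 2.72 and 2.71 in E11.5 females, and 3.52, 3.18 and 3.26 against 2.73, 2.71 and 3.14 in E12.5 males, without overlap. They read 3.0, 3.38 and 2.86 against 3.26, 2.47 and 2.96 in E11.5 males, and 3.59, 3.03 and 3.33 against 2.80, 2.76 and 3.28 in E12.5 females, with overlap. The call was lost after quantile normalization (0.29, adjusted p = 0.0822). It was also lost without any 1 of 10 arrays: replicate 2 of control or Rnf2delta E11.5 males, replicate 1 of control or Rnf2delta E11.5 females, replicates 1 or 2 of control E12.5 males, replicate 1 of Rnf2delta E12.5 males, replicates 1 or 2 of control E12.5 females, and replicate 1 of Rnf2delta E12.5 females (0.28 to 0.32, adjusted p from 0.0584 to 0.0892).

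Six2, a progenitor gene of kidney nephrons, passed in E11.5 males alone. Its Rnf2delta arrays there read 2.86, 2.79 and 3.16 against 2.47, 2.32 and 2.47, without overlap, for a change of 0.51 ± 0.13 (adjusted p = 0.0443). In E12.5 males it read 2.75, 2.79 and 2.83 against 2.74, 2.35 and 2.57 (0.25 ± 0.15, adjusted p = 0.623). In females it read 2.59, 2.34 and 2.87 against 2.49, 2.21 and 2.59 at E11.5, and 2.53, 2.79 and 2.43 against 2.99, 3.0 and 2.49 at E12.5, with overlap. The call rested on the setting: it was lost in 5 of 10 alternatives, and without any 1 array of the compared groups except Rnf2delta replicate 2 (0.41 to 0.55, adjusted p from 0.0705 to 0.293). At E13.5 controls read 2.36, 2.75 and 2.73 in males and 2.88, 2.77 and 2.75 in females.

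Tbx4 varied with sex and stage in control cells. Males read 5.73, 5.50 and 5.70 at E11.5, 5.01, 5.0 and 4.67 at E12.5, and 4.66, 4.88 and 4.66 at E13.5. Females read 5.69, 5.81 and 5.55 at E11.5, 6.20, 6.0 and 5.89 at E12.5, and 4.76, 4.75 and 4.84 at E13.5. The sexes overlapped at E11.5 and at E13.5, and all E12.5 female arrays lay above all other control arrays. In males Tbx4 fell by 0.72 ± 0.14 from E11.5 to E12.5 (adjusted p = 0.0028), where 1 member passed against 5.32% of all genes. In females it fell by 1.22 ± 0.20 from E12.5 to E13.5 (1.57e-04), where 2 members passed, both lower, against 11.1% of all genes. At E12.5 females were above males by 1.08 ± 0.20 (5.81e-04), where 3 members passed against 9.46% of all genes. Every alternative and every fit without 1 array kept these 3 Tbx4 calls. The E12.5 female arrays are those that varied more than the rest across genes.

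With genotype, Tbx4 fell by 0.28 ± 0.08 over the mean of the 4 comparisons (adjusted p = 0.0329). Rnf2delta arrays read 5.45, 5.42 and 5.04 in E11.5 males and 4.99, 5.67 and 5.70 in E12.5 females, below all controls of their group. They read 5.16, 5.43 and 5.76 in E11.5 females and 4.82, 5.10 and 4.89 in E12.5 males, where the genotypes overlapped. Without the 6 E12.5 female arrays the mean of the other 3 comparisons was -0.20 (adjusted p = 0.179), and with the groups at E11.5 and E12.5 alone it was -0.28 (0.0532). The call was also lost without any 1 of 11 arrays: replicate 3 of control or Rnf2delta E11.5 males, replicate 2 of control E11.5 females, replicates 1 or 2 of Rnf2delta E11.5 females, replicates 1 or 2 of control E12.5 males, replicate 1 of Rnf2delta E12.5 males, replicates 1 or 2 of control E12.5 females, and replicate 1 of Rnf2delta E12.5 females (-0.29 to -0.23, adjusted p from 0.0519 to 0.089).

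Six4, a homeobox regulator of muscle, kidney and gonad development, was lower in control females at E13.5. They read 4.62, 4.23 and 4.64, below all E13.5 males (5.10, 5.16 and 5.36) and all E12.5 females (5.08, 5.64 and 5.17). Controls of the other groups read 4.98, 5.43 and 4.90 in E11.5 females, 5.09, 5.17 and 5.19 in E11.5 males, and 5.43, 5.17 and 4.83 in E12.5 males. The E13.5 female minus male difference was -0.71 ± 0.18 (adjusted p = 0.00472), where 2 members passed (Lhx1 and Six4, both lower) against 16.3% of all genes, and it was kept without any 1 array. The change from E12.5 to E13.5 in females was -0.84 ± 0.23 (adjusted p = 0.0185), and missed the threshold without E12.5 replicate 2 (-0.62, 0.219), E12.5 replicate 3 (-0.86, 0.0879) or E13.5 replicate 2 (-0.71, 0.0712). Six4 overlapped between genotypes in all 4 comparisons (Rnf2delta 5.46, 4.96 and 5.27 in E11.5 males, 4.95, 4.77 and 5.12 in E11.5 females, 5.09, 5.08 and 4.72 in E12.5 males, and 4.28, 5.27 and 4.99 in E12.5 females).

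2 members passed while at background. Nkx3-2, an axial skeleton gene, read 2.80, 2.71 and 2.23 in control E12.5 females against 2.15, 1.93 and 2.11 in males, a difference of 0.51 ± 0.15 (adjusted p = 0.0351). Lhx5, a forebrain gene, read 2.65, 2.09 and 2.67 in control E12.5 females against 2.05, 1.76 and 2.01 at E11.5, a difference of 0.51 ± 0.16 (0.0496), the 1 member called there against 8.28% of all genes. The E12.5 female arrays were higher without overlap in each case, and the same arrays had the widest spread across genes. Nkx3-2 missed the threshold after quantile normalization (adjusted p = 0.0504), with the compared groups alone (0.114), and without any 1 of control E12.5 male replicates 1 and 2 and female replicates 1 and 2 (adjusted p from 0.0534 to 0.17). Lhx5 missed it after quantile normalization (0.099), with the 40th percentile filter (0.0527), with the replicate block (0.0557), with the compared groups alone (0.152), and without any 1 of the 6 arrays except E12.5 replicate 2 (0.0597 to 0.213). On the remaining arrays Nkx3-2 ran from 1.89 to 2.31 and Lhx5 from 1.81 to 2.40.

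At E11.5 control females and males differed in 1 member, Lhx1, against 0.532% of all genes. Control males changed in none between E12.5 and E13.5, where 1.81% of all genes were called. In that comparison 4 members had an unadjusted p under 0.05, without a share of all genes to set beside them. The adjusted count stayed at 0 in each alternative run. A change of the sex difference between stages, tested after the data had been seen, passed for 1 member from E11.5 to E12.5 and 1 from E12.5 to E13.5 (Tbx4 each time, against 1.89% and 3.78% of all genes), and for none from E11.5 to E13.5 (7.41% of all genes). Whether a genotype effect differed between the sexes or between the stages was tested directly, and no member passed in any of the 4 interactions, where 0% to 0.0251% of all genes did. At an unadjusted p under 0.05 there were 1 and 3 members for the sexes at E11.5 and E12.5, and 1 and 2 for the stages in females and males. The share of all genes at that limit is again not given, and the adjusted count was 0 in each alternative run. For Zic2 the female minus male difference in the genotype effect was -0.22 at E11.5 (95% interval -0.81 to 0.36) and -0.34 at E12.5 (-1.11 to 0.44). For Lhx1 it was 0.28 (-0.30 to 0.87) and -0.17 (-0.95 to 0.60), so differences of a good part of the effects' own size lie within these intervals.

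Some members that did not pass kept 1 sign in all 4 comparisons. Tbx1, Tbx3, Lhx9 and Nkx2-4 were above zero in each, and Tbx2, Tbx5 and Tbx18 below. The share of all genes that kept 1 sign is not given here, so this pattern is not read as a result about the members. Over the mean Tbx1 had a change of 0.25 ± 0.08 (adjusted p = 0.0601) and Tbx3 of 0.17 ± 0.08 (0.273). Over the 51 members the changes ran from -0.73 to 1.02 at E11.5 in females and from -1.01 to 1.25 in males, and at E12.5 from -0.71 to 1.01 and from -0.53 to 1.34, with Lhx1 and Zic2 at the ends each time. The median SE of a member's change was 0.13 for either sex at E11.5, and 0.20 in females and 0.14 in males at E12.5, which sets the size of change that could be seen.

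Several members sit side by side in the genome, and their values over the mean of the 4 comparisons are given in pairs; whether neighbours moved together was not tested. Zic2 on chromosome 14 rose by 1.16 ± 0.12, and its neighbour Zic5 gave -0.11 ± 0.11 by its higher probe set. The lower probe set annotated to Zic5, whose link to that gene was not tested, gave 0.52 ± 0.09. Tbx2 and Tbx4, adjacent on chromosome 11, gave -0.10 ± 0.07 and -0.28 ± 0.08, and Tbx3 and Tbx5 on chromosome 5 gave 0.17 ± 0.08 and -0.15 ± 0.06. Six3 and Six2 on chromosome 17 gave -0.03 ± 0.06 and 0.19 ± 0.08, and Six6 and Six4 on chromosome 12, with 1 gene between them, gave -0.06 ± 0.08 and -0.18 ± 0.10. In the runs of Nkx2-1, Nkx2-9 and Pax9 on chromosome 12 and of Nkx2-4, Nkx2-2 and Pax1 on chromosome 2, changes lay between -0.15 and 0.11, and Nkx2-4 was above background while its neighbours were not. The order of genes was taken from RefSeq on assembly GRCm38.p6.

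Regulators related to the families were counted by list, and the lists were chosen with earlier results of these data known. Of 46 other developmental regulators bound by Polycomb in stem cells, 5 rose over the mean of the 4 comparisons (En2, Cdx2, Gata2, Meis1 and Meis2) and 1 fell (Neurog2), where 6.15% of all genes were called higher and 1.77% lower, with a list median of 0.02 against -0.01 for all genes. Meis1 and Neurog2 were at background in all 10 groups. En2, a midbrain and hindbrain homeobox gene, rose by 0.72 ± 0.10 (adjusted p = 9.34e-06). Of 3 T-box genes outside the Tbx symbols 2 rose: Eomes, a mesoderm and trophoblast regulator, by 0.52 ± 0.06 (1.43e-06), and Mga, a subunit of a variant repressive complex 1, by 0.47 ± 0.09 (9.93e-04). Eomes was above background in Rnf2delta E12.5 males alone. Of 23 NK-like and Antennapedia-like homeobox genes 2 rose (Hhex, by 0.70 ± 0.13, and Msx1, by 0.42 ± 0.11) and 1 fell (Bsx, by 0.20 ± 0.06). The Bsx mean includes a change of -0.83 ± 0.15 in E12.5 females (adjusted p = 0.00267), whose arrays varied more than the rest. A fall of Bsx in the other comparisons is therefore not read from it. Of 9 LIM cofactors, which bind Lhx proteins, 1 rose (Lmo2, by 0.42 ± 0.12). None of 6 Eya and Dach partners of Six-type proteins, 6 Gli and Glis relatives of Zic, or 3 further LIM homeobox genes passed. In control females at E13.5 against males, 16.3% of all genes were called, among them many genes of these lists. There Eya2 and Eya3, coactivators of Six-type proteins, differed by -0.59 ± 0.12 (adjusted p = 9.74e-04) and -0.95 ± 0.12 (1.46e-06). Eya2 was above background in control E13.5 males alone (group means of 2.20 in females and 2.78 in males). Six4 was lower in the same comparison, and a link to these genes was not tested.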

How the data were processed

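The deposited values were log2 signals of 34760 probe sets on 30 Affymetrix arrays. R 2.15 and affy 1.36 are named in the submitters' processing notes; the sources used here do not state the background correction, summarisation or probe build, and scanner files were not analysed here. Array medians lay between 2.52 and 2.66, and no further normalization was applied. Precision is limited by having 3 arrays per group. Probe sets with 1 symbol (21640; 1321 had several and 11799 none) were named from GEO's platform annotation, and 21553 symbols were updated through RefSeq's gene table. For each gene the probe set with the highest mean was kept. Group means were fitted to all 30 arrays with array weights in limma 3.58.1 (R 4.3.3), without a filter on low signals, and two-sided p-values were adjusted over all 19937 genes by the Benjamini-Hochberg method, with a threshold of 0.05. The fit was tested on simulated data. Members passing in any comparison are given array by array. Members and lists were chosen with earlier results of these data known. Changes of the sex difference between stages, the mean without E12.5 females, and the fit with the lower probe sets of Zic4 and Zic5 were added after seeing the data. Weights, trend, normalization, filter, probe set choice, replicate block and arrays used were varied.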

Additional observations from a re-analysis of the deposited data

Results flagged for a closer look

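The sex difference in Tbx4 was not the same at each stage of the control germ cells, by a test of the difference itself that was added after the data had been seen. From E11.5 to E12.5 the female minus male difference changed by 1.03 ± 0.24 (SE; limma adjusted p = 0.0219; 1 member against 1.89% of all genes), with all 3 E12.5 female arrays above all 3 male arrays and the sexes overlapping at E11.5. This missed the threshold without control E12.5 female replicate 1 (0.97, adjusted p = 0.0775) or replicate 2 (1.07, 0.0608). From E12.5 to E13.5 it changed by -1.02 ± 0.24 (adjusted p = 0.0172; 1 member against 3.78% of all genes), and this was kept without any 1 of the 12 arrays, at an adjusted p of at most 0.0467. Both values rest on the E12.5 female arrays, which had the lower weights of 0.311 to 0.855. From E11.5 to E13.5 no member passed, where 7.41% of all genes did.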

How the results depend on the processing

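Zic5 was the gene whose sign reversed. With the lower probe sets of Zic4 and Zic5, added after seeing the data, its genotype change was 0.22 in E11.5 females, 0.61 in E11.5 males, 0.57 in E12.5 females and 0.52 over the mean of the 4, and with the mean of its probe sets 0.084, 0.27, 0.076 and 0.21. By the higher probe set it ranged from -0.14 to 0.19 in E11.5 males leaving out 1 array at a time (above zero without control replicate 3), and from -0.051 to 0.35 in E12.5 males (below zero without control replicate 1 or Rnf2delta replicate 3). No other result reversed. Counts of members called moved by over 1.5 times as follows. With equal array weights there were 5 in E12.5 females by genotype, 4 in control females from E11.5 to E12.5 and 8 from E12.5 to E13.5, where the main fit gave 0, 1 and 2. With the compared groups alone the genotype counts were 0 in E11.5 females, 1 in E11.5 males and 1 in E12.5 females, and 0 in control females from E11.5 to E12.5. Over all genes, E12.5 females by genotype gave 250 calls, 1761 with equal weights and 49 with the compared groups alone, and E11.5 males 341, 100 and 130. Equal weights also raised the calls over all 19937 genes in control females, from 1651 to 3330 for E11.5 to E12.5. For E12.5 to E13.5 they rose from 2216 to 3785. The higher member counts there are therefore no result about the members. Quantile normalization gave 2 in E11.5 females by genotype. The 40th percentile filter gave 2 in E12.5 males (Lhx8 and Zic2), as did the lower probe sets (Zic2 and Zic5). One weight per group, an intensity trend and the mean of probe sets each gave 2 in control females from E11.5 to E12.5. For the change of the sex difference, quantile normalization gave 2 from E12.5 to E13.5 and 2 from E11.5 to E13.5, and the compared groups alone 1 from E11.5 to E13.5. Counts over all genes are not given here for quantile normalization, the filter, probe set choices, group weights, the trend or the replicate block. These shifts are therefore not read as results about the members. With a limit at the 99th percentile of olfactory receptor genes 10 members were above background, with the 90th 31, and with the 40th percentile of all probe sets 41, where the main limit gave 24.

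Leaving out 1 array at a time, the members called ranged from 0 to 1 in E11.5 females, 1 to 3 in E11.5 males, 0 to 0 in E12.5 females and 1 to 1 in E12.5 males by genotype, and from 3 (without control E12.5 female replicate 2) to 8 for the mean of the 4. They ranged from 0 to 2 and 1 to 3 for the 2 steps in control females, 1 to 1 and 0 to 0 in control males, and 0 to 1, 2 to 3 and 2 to 3 for the sexes at E11.5, E12.5 and E13.5. Samples were not treated as paired by replicate number. In the 4 genotype comparisons, correlations taken between arrays of the same number ran from -0.136 to 0.276. With 3 arrays per group these values cannot settle whether the samples were paired. With the replicate block the count of members was 0 instead of 1 in control females from E11.5 to E12.5 (Lhx5, 0.48, adjusted p = 0.0557) and 3 instead of 2 for the sexes at E13.5, and it was the same in the other comparisons. Signals of 27 members at background allow no statement on their transcripts, and the wider spread of the E12.5 female arrays limits every comparison that uses them. Scan dates were not used here, so a batch effect was not tested.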
